A study of Homo sapiens with 6 samples.

Results

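LS174T cells come from a human colorectal adenocarcinoma and make mucus, as goblet cells of the gut do. Poly(A) RNA was counted per gene in 3 libraries labelled with the genotype FXYD3 knockout and in 3 wild-type (WT) libraries, with no treatment named in either group. FXYD3 encodes a small membrane protein that regulates the sodium pump. The BCL2 family members described here were the rows of the count table with 1 of 10 gene names: the prosurvival genes MCL1, BCL2L1 and BCL2, the effector gene BAK1, the BH3-only genes BCL2L11, BID, BIK, BMF and BAD, and BCL2L15. These are 10 of the 58735 named genes in the table, and all 10 passed the filter on low counts that left 15351 genes to test. Neither the origin of each library (a culture, a clone) nor the way the gene was edited is stated in the labels, so every p-value reflects library-to-library spread alone, and that spread may be technical.

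BCL2 family proteins decide whether the outer membrane of the mitochondrion is opened during apoptosis. Prosurvival members bind and hold the effectors BAK and BAX. BH3-only members, which share a short helix called BH3, occupy the prosurvival proteins after stress, and some of them also activate the effectors directly. In the gut these proteins set how readily epithelial cells die after damage or when they detach from the tissue.

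Libraries held 15417232 to 19453217 counts in named genes. FXYD3 had 79, 131 and 85 counts in the knockout-labelled libraries and 54, 91 and 55 counts in the WT libraries. The knockout-labelled libraries therefore did not have less of it (log2 fold change 0.54, SE 0.20, edgeR adjusted p = 0.0522; called higher under 5 of 16 alternatives), so directions below compare libraries by their labels. Of the 9 colon epithelial markers, 9 were tested, and they summed to 10997 to 11762 CPM in knockout-labelled and 10130 to 11447 CPM in WT libraries. CDX1 and CDH1 were lower (log2 fold changes -0.67 and -0.36), LGALS4 was higher (0.22), and EPCAM, KRT8, KRT18, KRT20, CDX2 and VIL1 were not called. Goblet markers were detected in both groups and summed to 546 to 592 CPM in knockout-labelled and 939 to 1082 CPM in WT libraries. Of the 8 tested, 7 were lower in the knockout-labelled libraries, beside 12.4% of all genes tested. The part of either marker list in the results below was not tested. The leukocyte genes PTPRC, CD3E and HLA-DRA and the stromal genes COL1A2 and PECAM1 had 0 counts throughout, whereas COL3A1 had 5.18 to 6.09 CPM in knockout-labelled and 0.225 to 0.405 CPM in WT libraries. In bulk libraries such as these, fewer cells with a transcript and less transcript per cell cannot be told apart.

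Among the 10 members, BCL2 and BMF were higher in the knockout-labelled libraries and BIK and BID were lower, while the other 6 did not pass the test. BMF had the largest log2 fold change in size, 1.18, at a low level, and BIK followed at -0.81 from a far higher level. Called here means an adjusted p below 0.05 in edgeR's quasi-likelihood test, adjusted over all genes tested. The members' count of 4 of 10 stands beside 24.3% of all genes called in either direction. By direction it is 2 higher beside 12.0% of all genes, and 2 lower beside 12.4%. The members' median log2 fold change was -0.0038 and that of all genes tested 0.0021; the median sizes regardless of sign were 0.13 and 0.17. The ranges of the groups did not overlap for 6 members, the 4 called ones and MCL1 and BAK1, beside 37.2% of all genes.

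**Figure D1:**
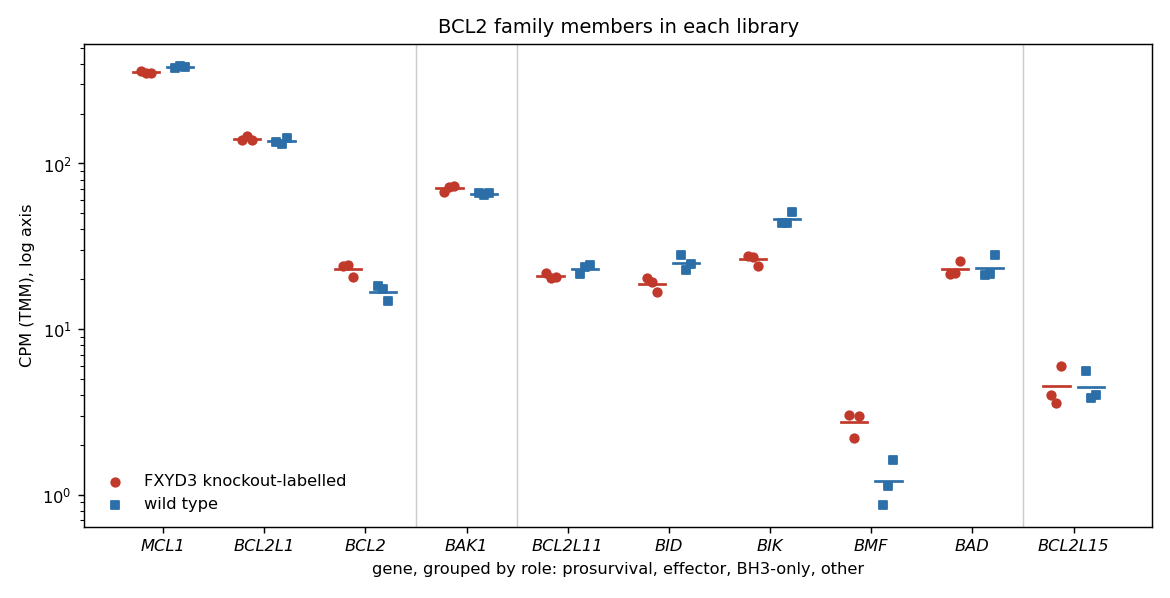
Level of each member in each library, as CPM on a log axis; circles are the 3 knockout-labelled and squares the 3 WT libraries, short lines are group means, and grey lines part the roles. The groups stand apart for BCL2, BID, BIK and BMF, by less for MCL1 and BAK1, and overlap for the other members.

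MCL1, a short-lived prosurvival protein, was the most abundant member per gene length. Its gene (ENSG00000143384; GRCh38 chromosome 1, 150574551 to 150579738, minus strand) had 360.0, 354 and 352 CPM in the knockout-labelled libraries and 376, 388 and 382 CPM in the WT libraries. All knockout-labelled values lay below all WT values, but the difference was small. Its log2 fold change was -0.10 (SE 0.054, 95% interval -0.22 to 0.0066, adjusted p = 0.173). The interval reaches a level 0.861 times that of WT, so a larger fall than that lies outside it.

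BCL2L1 encodes BCL-XL, a prosurvival protein of the mitochondrial membrane, and by other splicing a shorter form that promotes death; the counts cover all 9 annotated transcripts and cannot tell the forms apart. The gene (ENSG00000171552; chromosome 20, 31664452 to 31723989, minus strand) had 139, 146 and 139 CPM in knockout-labelled libraries against 135, 130.5 and 142 CPM in WT libraries. The groups overlapped, with a log2 fold change of 0.06 (95% interval -0.060 to 0.18, adjusted p = 0.518). The antisense gene ABALON shares 1424 exonic bases with it on the other strand, at 2.95 CPM in knockout-labelled and 2.59 CPM in WT libraries, and where counting ignores strand the reads of both cannot be told apart.

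BCL2, the founding prosurvival member, which guards the mitochondrion and the endoplasmic reticulum, was the prosurvival member that rose. The gene (ENSG00000171791; chromosome 18, 63123346 to 63320128, minus strand) had 373, 474 and 345 counts, or 24.1, 24.3 and 20.6 CPM, in the knockout-labelled libraries and 315, 309 and 237 counts, or 18.2, 17.4 and 14.7 CPM, in the WT libraries. Every knockout-labelled library was above every WT library. The rise was 1.37-fold (log2 fold change 0.45, SE 0.10, 95% interval 0.24 to 0.67, adjusted p = 0.00182), and it stayed between 0.37 and 0.53 with each library left out in turn. Its nearest tested neighbours, PHLPP1 and KDSR, had log2 fold changes of -0.10 and 0.05 and were not called. Of the 228 tested genes on chromosome 18, 18.4% were higher and 7.89% lower, beside 12.0% and 12.4% of all genes. Their median log2 fold change was 0.046. Whether the rise of BCL2 has a part in this lean of the chromosome was not tested.

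The rise of BCL2 was small beside the summed level of the 3 prosurvival members. Scaled to gene length, BCL2 made up 1.55% ± 0.126 of the summed level of these 3 prosurvival genes in knockout-labelled libraries and 1.10% ± 0.133 in WT libraries (SD, n = 3 each). MCL1 made up 64.6% ± 0.777 in knockout-labelled and 67.3% ± 1.07 in WT libraries, and BCL2L1 33.9% ± 0.757 in knockout-labelled and 31.6% ± 1.14 in WT libraries. These shares are descriptions with no test, and they leave out BCL2L2, another prosurvival gene that is not a member. The sum itself was 124 to 127 CPM per kilobase in knockout-labelled and 128 to 132 CPM per kilobase in WT libraries, without overlap.

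BAK1 encodes BAK, an effector that forms pores in the outer mitochondrial membrane once it is activated. The gene (ENSG00000030110; chromosome 6, 33572547 to 33580293, minus strand) had 67.2, 72.3 and 73.3 CPM in knockout-labelled libraries and 65.9, 64.3 and 65.9 CPM in WT libraries. The knockout-labelled libraries were all higher, by little. The log2 fold change of 0.12 (SE 0.067, 95% interval -0.019 to 0.25) did not pass the test (adjusted p = 0.215). Of the other effectors, which are not members, BAX, whose sign turned without WT library 3, had 36.6 ± 1.48 CPM in knockout-labelled and 39.5 ± 5.55 CPM in WT libraries (adjusted p = 0.431), and BOK 70.1 ± 4.70 CPM in knockout-labelled and 63.8 ± 6.75 CPM in WT libraries (adjusted p = 0.212; SD, n = 3 each). None of these 3 effector genes passed edgeR's test, and their unadjusted p-values were 0.0878 for BAK1, 0.242 for BAX and 0.0865 for BOK.

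BIK gave the smallest p of the members. It encodes a BH3-only protein that sits mainly at the endoplasmic reticulum. The gene (ENSG00000100290; chromosome 22, 43110748 to 43129712, plus strand) had 426, 536 and 403 counts, or 27.5, 27.4 and 24.0 CPM, in the knockout-labelled libraries. The WT libraries had 753, 778 and 821 counts, or 43.6, 43.7 and 50.98 CPM. The highest knockout-labelled value was far below the lowest WT value. BIK was 1.75-fold lower (log2 fold change -0.81, SE 0.086, 95% interval -0.98 to -0.63, adjusted p = 3.62e-08), which placed it at rank 401 of the 15351 genes by adjusted p. Leaving out each library in turn moved the log2 fold change only between -0.85 and -0.73. No other gene in the table overlaps BIK, and it has 1 annotated transcript. Of its nearest tested neighbours, MCAT begins 2493 bases further along the chromosome and had a log2 fold change of -0.20 (adjusted p = 0.0513), and TTLL1 had -0.14 (adjusted p = 0.717).

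BID encodes the BH3-only protein that caspase-8 cleaves, which links death receptors to the mitochondrion. The gene (ENSG00000015475; chromosome 22, 17734138 to 17774770, minus strand) had 20.4, 19.1 and 16.8 CPM in knockout-labelled libraries and 28.1, 22.9 and 24.7 CPM in WT libraries. The groups did not overlap, and WT library 1 was the highest. BID was 1.34-fold lower (log2 fold change -0.42, SE 0.10, 95% interval -0.63 to -0.22, adjusted p = 0.00252), and the log2 fold change lay between -0.49 and -0.34 with each library left out, with adjusted p of at most 0.0371. Its nearest tested neighbours, BCL2L13 and MICAL3, had log2 fold changes of 0.12 and 0.27 and were not called. Both members that fell lie on chromosome 22, far apart; of its 400 tested genes 9.75% were higher and 14.0% lower, with a median log2 fold change of -0.0049.

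BMF encodes a BH3-only protein that is held at the cytoskeleton through dynein light chains and is known for its part in death after loss of attachment. The gene (ENSG00000104081; chromosome 15, 40087890 to 40108892, minus strand) was scarce, with 47, 43 and 50 counts, or 3.04, 2.20 and 2.98 CPM, in the knockout-labelled libraries and 15, 20 and 26 counts, or 0.868, 1.12 and 1.61 CPM, in the WT libraries. Every knockout-labelled library was above every WT library. The rise was 2.27-fold, but so few counts left a wide interval (log2 fold change 1.18, SE 0.30, 95% interval 0.56 to 1.81, adjusted p = 0.00470). The call held with each library left out, at a log2 fold change of 0.99 without WT library 1 (adjusted p = 0.0375) up to 1.44 without WT library 3. BMF-AS1, which overlaps it on the other strand, had 0 counts in all libraries. Its nearest tested neighbours, SRP14-AS1 and BUB1B, had log2 fold changes of 0.48 and -0.03 and were not called.

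BCL2L11 encodes BIM, a BH3-only protein that activates the effectors and is controlled by ERK and FOXO signalling. The gene (ENSG00000153094; chromosome 2, 111119378 to 111168447, plus strand) had 21.7, 20.4 and 20.7 CPM in knockout-labelled libraries and 21.5, 23.7 and 24.2 CPM in WT libraries. The groups overlapped through WT library 1, and the log2 fold change of -0.14 (95% interval -0.33 to 0.048) did not pass (adjusted p = 0.291). The noncoding gene MIR4435-2HG shares 727 exonic bases on the opposite strand and had 10.9 CPM in knockout-labelled and 10.8 CPM in WT libraries.

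BAD encodes a BH3-only protein that survival kinases phosphorylate and 14-3-3 proteins then hold in the cytosol. The gene (ENSG00000002330; chromosome 11, 64269830 to 64284704, minus strand) had 21.5, 21.8 and 25.9 CPM in knockout-labelled libraries and 21.1, 21.4 and 27.9 CPM in WT libraries. In both groups library 3 was the highest, and the groups overlapped throughout. The log2 fold change was -0.02 (95% interval -0.25 to 0.20, adjusted p = 0.910), and its sign turned with total-count scaling or without knockout-labelled library 1 or 2 or WT library 3. BAD shares 404 exonic bases with GPR137 on the opposite strand, which was more abundant, at 35.3 CPM in knockout-labelled and 33.3 CPM in WT libraries.

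BCL2L15, a less studied member, was low in both groups. The gene (ENSG00000188761; chromosome 1, 113878168 to 113887547, minus strand) had 4.01, 3.58 and 6.02 CPM in knockout-labelled libraries and 5.61, 3.82 and 3.97 CPM in WT libraries. One library of each group stood above the rest, knockout-labelled 3 and WT 1. The log2 fold change was 0.02 with a 95% interval of -0.42 to 0.46 (adjusted p = 0.972), and that interval runs from 0.745 to 1.37 times the WT level. Its sign turned without knockout-labelled library 3 (-0.24) or WT library 2 (-0.09) or 3 (-0.06).

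The nearest tested neighbours of the members that were not called were read in the same way. ECM1, next to MCL1, and ID1, next to BCL2L1, were lower, with log2 fold changes of -0.45 (adjusted p = 0.0163) and -0.22 (adjusted p = 0.00911). Of the others, ENSA, TPX2, ITPR3, BUB1, ANAPC1, PLCB3, ESRRA, RSBN1 and AP4B1 were not called. GGNBP1, opposite BAK1, had 0 counts, and AP4B1-AS1, opposite BCL2L15 with no shared exonic base, had 45 counts summed over the knockout-labelled and 20 over the WT libraries.

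**Figure D2:**
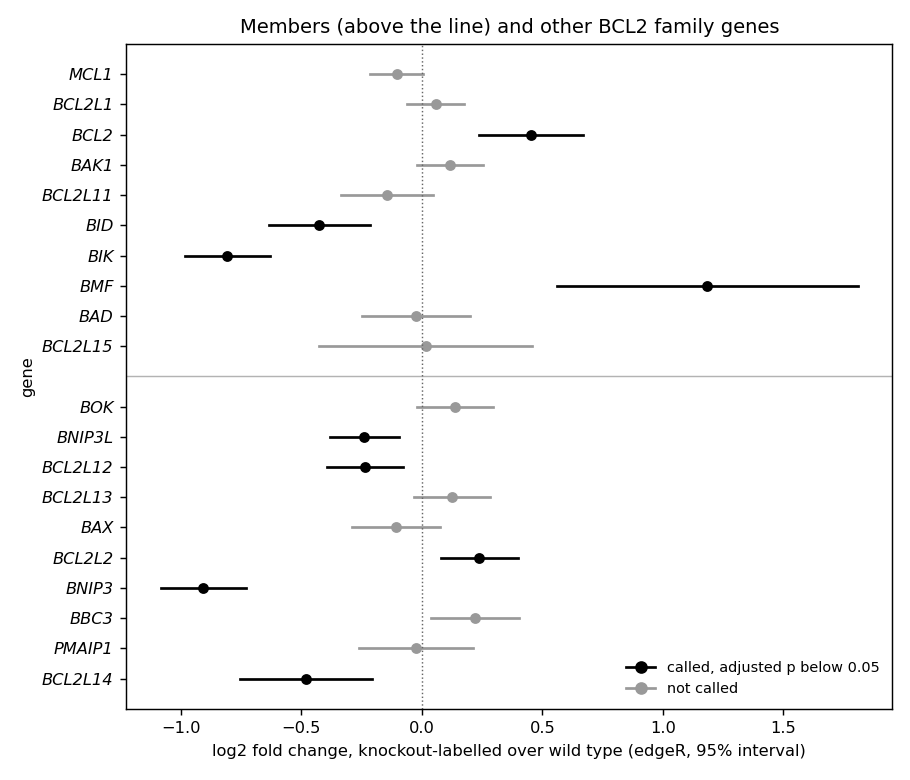
Log2 fold change with its 95% interval for each member (above the grey line, ordered by role) and for the 10 tested family genes that are no members (below it, ordered by mean level); black marks genes with an adjusted p below 0.05. BIK at -0.81 and BMF at 1.18 lie farthest from 0 among the members, with the widest interval for BMF.

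Per gene length, as CPM per kilobase, the members covered a wide range. In knockout-labelled libraries the order was MCL1 (81.3 ± 0.953), BCL2L1 (42.7 ± 1.19), BAK1 (32.1 ± 1.47), BIK (27.6 ± 2.10), BAD (13.5 ± 1.42), BID (4.23 ± 0.413), BCL2L11 (3.15 ± 0.102), BCL2 (1.95 ± 0.178), BCL2L15 (0.588 ± 0.169) and BMF (0.503 ± 0.0859), with only BCL2L15 and BMF overlapping in range. In WT libraries BIK stood second, at 48.4 ± 4.45 CPM per kilobase, above BCL2L1 at 41.0 ± 1.79 and BAK1 at 29.6 ± 0.420, and no neighbours in the order overlapped (SD, n = 3 each). The order depends in part on the length used. With the longest coding transcript in place of all annotated exons, BCL2L1 came to 52.1 ± 2.28 and BIK to 48.4 ± 4.45 CPM per kilobase in WT, with overlap. BCL2L15 came to 4.18 ± 1.20 in knockout-labelled and 4.12 ± 0.915 CPM per kilobase in WT libraries with that length, above BCL2 in both groups and overlapping BCL2L11 in both. Among the 15351 genes tested, MCL1 ranked 446 by level per length, BIK 1199 and BMF 14083.

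Among the 5 BH3-only members, BIK was the largest contributor to their summed level per length in both groups. Its share of the 5 BH3-only members was 52.7 to 58.4% in knockout-labelled and 67.4 to 68.1% in WT libraries. The sum of the 5 was 47.8 to 49.9 CPM per kilobase in knockout-labelled libraries and 67.3 to 79.3 CPM per kilobase in WT libraries. BMF, which rose, made up 1.03% ± 0.181 of it in knockout-labelled and 0.305% ± 0.0693 in WT libraries (SD, n = 3 each). With the longest coding transcript as length, the share of BIK was 42.8 to 48.2% in knockout-labelled and 57.5 to 58.6% in WT libraries. These sums and shares describe mRNA and carry no test. They leave out BH3-only genes that are not members, such as BBC3 and PMAIP1.

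**Figure D3:**
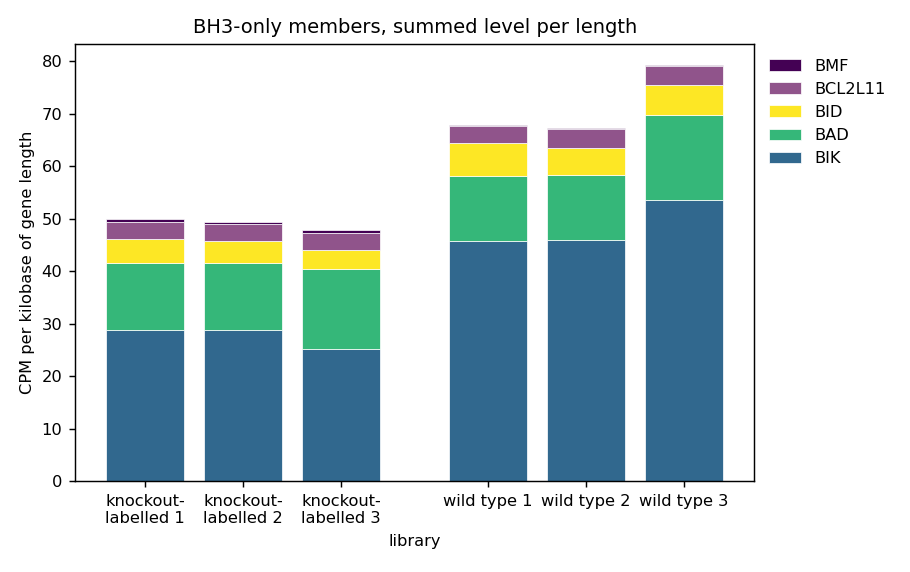
Summed level of the 5 BH3-only members in each library, as CPM per kilobase of gene length, knockout-labelled libraries on the left and WT on the right. The bars reach 47.8 to 49.9 in knockout-labelled and 67.3 to 79.3 in WT libraries, and the BIK segment at the base is the tallest in every bar.

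For the BH3-only genes that moved in opposite directions, and for BCL2L11 as a known FOXO target that did not pass the test, the sequence before the RefSeq start site nearest the gene's outer end is shown, as far as no exon of the gene is annotated in it. The windows are from RefSeq on GRCh38.p14, 5′ to 3′ on the gene's strand, with matches to any motif searched in capitals. They lie at chr15:40108893-40109129 (BMF, minus strand), chr22:17774771-17774915 (BID, minus strand) and chr2:111120664-111120913 (BCL2L11, plus strand). The start site used lies 13 bases inside the gene's outer end for BMF, 105 for BID and 1536 for BCL2L11. The BCL2L11 stretch is therefore within the gene's own span, outside its annotated exons, unlike the other stretches.
BMF: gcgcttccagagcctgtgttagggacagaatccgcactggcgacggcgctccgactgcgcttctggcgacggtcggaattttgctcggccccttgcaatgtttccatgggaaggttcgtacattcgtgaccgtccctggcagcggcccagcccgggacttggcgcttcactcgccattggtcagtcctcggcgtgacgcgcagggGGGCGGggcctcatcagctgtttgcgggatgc
BID: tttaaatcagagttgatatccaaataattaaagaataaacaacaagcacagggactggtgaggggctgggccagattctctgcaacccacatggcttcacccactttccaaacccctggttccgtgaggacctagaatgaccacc
BCL2L11: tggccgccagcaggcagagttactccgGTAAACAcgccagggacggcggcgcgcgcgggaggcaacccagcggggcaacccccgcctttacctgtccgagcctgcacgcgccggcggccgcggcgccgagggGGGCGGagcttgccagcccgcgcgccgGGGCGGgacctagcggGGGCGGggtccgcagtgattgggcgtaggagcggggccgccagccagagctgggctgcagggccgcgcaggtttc

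Each of 6 motifs was searched on both strands. The GC box, bound by SP factors, was read as GGGCGG. For the TATA box of the basal machinery the letters were TATAAA. Forkhead factors, the family of FOXO, were represented by GTAAACA. The core of the hypoxia response element was taken as ACGTG. STAT factors were searched as TTCNNNGAA, and E2F factors as GGCGGGAA, whose first letters overlap the GC box in part. Windows of 250 bases were found for 8 of the 10 members. BIK and MCL1 had none in the table. BMF held 1 GC box in this window, BCL2L11 3 GC boxes and 1 forkhead match, and BID no match here, although 4 of its 5 RefSeq windows hold a GC box and 2 hold ACGTG. Of all 35116 RefSeq windows of that length, 42.6% hold the GC box, 10.7% the TATA box, 2.98% the forkhead letters, 18.5% the hypoxia core, 6.57% the STAT letters and 2.72% the E2F letters. The BMF and BCL2L11 stretches had 64.6% and 76.8% G and C, and the BID stretch 46.9%. The BCL2 window lies wholly inside annotated exons and is not shown.

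The 10 other tested genes of the family were fixed as a list with earlier results known. They split 1 higher and 4 lower, with 5 not called and a median log2 fold change of -0.06. That is 50% called, beside 24.3% of all genes (12.0% higher and 12.4% lower). BNIP3, a hypoxia-responsive receptor for the removal of mitochondria, was the family gene with the largest fall, at 23.4 ± 2.04 CPM in knockout-labelled and 43.9 ± 2.60 CPM in WT libraries. Its relative BNIP3L fell to 51.5 ± 1.30 CPM in knockout-labelled libraries, against 60.7 ± 2.58 CPM in WT, a call lost without knockout-labelled library 1 (adjusted p = 0.0591) or WT library 1 (0.0537); it shares 330 exonic bases with PNMA2 on the other strand, which also fell. BCL2L14 fell to 7.33 ± 0.110 CPM in knockout-labelled libraries, against 10.2 ± 0.915 CPM in WT, and was not called without WT library 1 (adjusted p = 0.0714; SD, n = 3 each).

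BCL2L2 encodes BCL-W, another prosurvival protein, and was called higher at a log2 fold change of 0.24 (adjusted p = 0.0260). That call was lost without knockout-labelled library 1 or 3 or WT library 1 or 2 (adjusted p 0.0634, 0.0939, 0.0876 and 0.0637) with the replicate block (0.0601) and with no filter on low counts (0.066). BCL2L12 was called lower at -0.24 (adjusted p = 0.0234), a call lost without knockout-labelled library 2 or 3 or WT library 1 or 3 (0.113, 0.0963, 0.0646 and 0.0563) and with the replicate block (0.0549). BCL2L12 shares 734 exonic bases with IRF3, and BCL2L2 shares 206 with PPP1R3E on the opposite strand and 813 with the readthrough gene BCL2L2-PABPN1.

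The p53-responsive BH3-only genes were not called. BBC3, which encodes PUMA, had 35.8 ± 3.70 CPM in knockout-labelled and 30.8 ± 2.61 CPM in WT libraries (log2 fold change 0.22, adjusted p = 0.0724; SD, n = 3 each), and passed without knockout-labelled library 1 (0.0366) or WT library 3 (0.0298) and with upper quartile (0.0475) or total-count scaling (0.0456). PMAIP1, which encodes NOXA, had a log2 fold change of -0.02 (adjusted p = 0.918), whose sign turned with total-count scaling or without knockout-labelled library 2 or 3 or WT library 1. BCL2L13, a mitochondrial receptor like BNIP3, had 0.12 (adjusted p = 0.265). HRK, BCL2L10 and BCL2A1 had at most 1 count in any library and were not tested; 3 counts, the limit that a count of 0 allows, are 0.153 to 0.194 CPM.

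Beyond the family, genes of the death machinery were counted in 7 further lists. Over all 8 lists, the other family genes included, 3 of 94 tested genes were higher and 12 lower, which is 16.0% called beside 24.3% of all genes; the median log2 fold change was 0.02. The median was 0.0021 for caspases and the apoptosome, 0.10 for inhibitors of apoptosis, -0.01 for death receptors, 0.0037 for outer membrane channels, 0.11 for turnover, -0.05 for sequestration and kinases and 0.04 for transcription factors. Of 16 caspase and apoptosome genes 0 were higher and 1 lower. Of 5 tested inhibitors of apoptosis 0 were higher and 1 lower. BIRC5, which encodes survivin and rises with cell division, had -0.20 (adjusted p = 0.0163), lost without knockout-labelled library 1 or 3 or WT library 1 (0.0804, 0.0690 and 0.147) and with the block (0.0609). Of 13 tested death receptor genes 1 was higher and 0 lower. The decoy receptor gene TNFRSF10C had 0.70 (adjusted p = 0.0280), lost without knockout-labelled library 1 or 3 or WT library 3 (0.0809, 0.166 and 0.113) and with the block (0.0513).

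Of 10 genes of outer membrane channels and partners, 0 were higher and 1 lower, which is 10% called beside 24.3% of all genes. TSPO, a cholesterol-binding protein of that membrane, fell to 187 ± 7.81 CPM in knockout-labelled libraries, against 242 ± 36.3 CPM in WT (log2 fold change -0.37, adjusted p = 0.00759). Of 8 tested genes for turnover of MCL1 and BH3-only proteins edgeR called 0, as did DESeq2 and limma voom, and 1 had an unadjusted p below 0.05 with each tool. The most abundant, HUWE1, a ubiquitin ligase of MCL1, had 369.6 ± 44.6 CPM in knockout-labelled and 324 ± 27.3 CPM in WT libraries (adjusted p = 0.0937), and passed without knockout-labelled library 1 (0.0411) or WT library 2 (0.00394), and also when genes with low counts were kept (0.0207; SD, n = 3 each).

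The list of proteins that hold or phosphorylate BH3-only proteins had 1 of 20 genes higher and 3 lower. That is 20% called, beside 24.3% of all genes (12.0% higher and 12.4% lower). PIM3, of a kinase family that phosphorylates BAD, fell to 179.8 ± 7.35 CPM in knockout-labelled libraries, against 247 ± 22.4 CPM in WT (log2 fold change -0.45). MAPK3, which encodes ERK1, was lower at -0.30 (adjusted p = 0.00230) and the 14-3-3 gene YWHAG higher at 0.22 (adjusted p = 0.00336). DYNLL1, a dynein light chain that binds BIM, was lower at -0.19 (adjusted p = 0.0242), lost without knockout-labelled library 2 or 3 or WT library 1 or 3 (0.0751, 0.106, 0.114 and 0.122) and with the block (0.0684). Of 12 tested transcription factors that act on these genes 0 were higher and 2 lower, which is 16.7% called beside the same 24.3%. STAT5A is a cytokine-activated factor that raises BCL2L1 in blood cells. It fell to 7.81 ± 0.520 CPM in knockout-labelled libraries, against 28.8 ± 0.739 CPM in WT (log2 fold change -1.89, SE 0.10). BCL2L1 did not pass the test, and whether STAT5A acts on it in these cells was not tested. E2F1, a factor of S-phase entry, was lower at -0.28 (adjusted p = 0.00204; SD, n = 3 each).

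**Figure D4:**
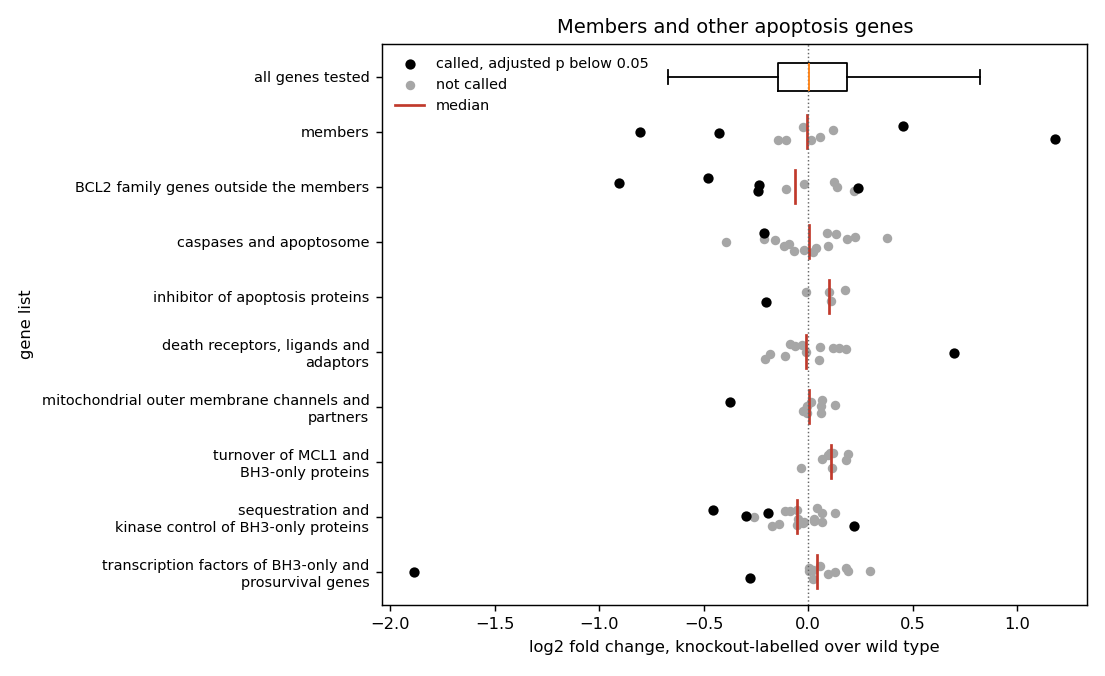
Log2 fold change of each tested gene by list, with medians as red bars and genes called at an adjusted p below 0.05 in black; the box at the top gives the quartiles and the 5th to 95th percentile of all 15351 genes. Of the members 4 of 10 were called and of the other apoptosis genes 15 of 94, beside 24.3% of all genes. STAT5A at -1.89 lies farthest to the left.

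The genes whose pattern over the 6 libraries was most like a called member were sought among the 10485 tested protein-coding genes averaging 5 CPM or more. The measure was the root mean square difference in log2 of CPM plus 0.5, centred on each gene's mean. The added 0.5 shrinks differences at low levels, so BMF was matched by a pattern flatter than its log2 fold change. For BIK these were KIAA1324L (difference 0.037), AVPI1 (0.047) and TSC22D3 (0.052), the last a glucocorticoid-induced gene, with log2 fold changes of -0.85, -0.82 and -0.75. For BMF they were PNMA1 (0.106), RYR2 (0.115) and RGS2 (0.124). PNMA1 had 12.8 CPM in knockout-labelled and 6.40 CPM in WT libraries, and RYR2 and RGS2 had log2 fold changes of 1.04 and 1.01.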

How the data were processed

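Per the submitters' processing notes, HISAT2 2.0.5 aligned the reads and featureCounts 1.5.0-p3 counted them. These notes name a mouse build, mm10, but all 58735 named identifiers are in GENCODE release 29 of the human genome, so the table's own coordinates are read as GRCh38. How strand and multiply mapped reads were handled, and which annotation was used, is not given in the sources used here. What the authors deposited were raw counts per gene; 232 of 58967 rows have no gene name, held 0.130 to 0.25% of a library and were left out.

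Here the 3 knockout-labelled libraries were compared with the 3 WT libraries by edgeR 4.0.16 (R 4.3.3; TMM, filterByExpr with a minimum count of 10, robust quasi-likelihood fit without covariates, Benjamini-Hochberg over 15351 genes, two-sided). CPM uses TMM-scaled library sizes. Levels per length divide CPM by the table's gene length, which the file headers give in bases and which spans all annotated exons. Shared replicate numbers were not used as pairs. The test was also run on simulated counts, with the same spread for all genes and changes larger than those of BCL2, BID and BIK. That run does not cover calls of such size. Intervals cover the spread between libraries; limits from counts cover counting error only.

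Alternatives were DESeq2 1.42.0, limma 3.58.1 voom, other normalizations and filters, protein-coding genes alone, no robust estimation, a replicate block and each library left out. Members, lists and alternatives were chosen with earlier results of these data known. All members are named. From each list up to 4 called genes were named by smallest p, or otherwise the most abundant, and in the list of other family genes every gene. Some genes that this rule would name are not reported here. MCL1 and BIK have no promoter entry.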

Additional observations from a re-analysis of the deposited data

How the results depend on the processing

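Under the 16 alternatives (10 settings of the processing and each of 6 libraries left out), BCL2, BMF, BIK and BID kept their direction and an adjusted p below 0.05 in every one, with highest adjusted p of 0.020, 0.0375, 5.93e-06 and 0.0371. MCL1, BCL2L1, BAK1 and BCL2L11 kept their direction and were called in none. BAD changed sign with total-count scaling (0.0029 on the log2 scale) and ranged from -0.11 to 0.11 with a library left out. BCL2L15 changed sign in limma voom (-0.0067) and ranged from -0.24 to 0.21. FXYD3 passed with upper quartile scaling (0.56), no filter (0.52), the replicate block (0.54) and protein-coding genes alone (0.55) and without WT library 2, and ranged from 0.38 to 0.79 with a library left out. The cause of these changes was not tested.

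Of the other apoptosis genes, 5 were called higher with upper quartile or total-count scaling, against 3 in the fit reported, and 1 with the replicate block; with a library left out 1 to 7 were higher and 7 to 16 lower, with fewest higher (1) without knockout-labelled library 3, fewest lower (7) without WT library 1, and most of both without WT library 2. BAX ranged from -0.19 to 0.0064 with a library left out, and PMAIP1 from -0.10 to 0.030, and was 0.0025 with total counts. Other named genes gave 432 values, of which 389 kept direction and call.

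The labels do not say whether equal replicate numbers mark pairs. Deviations from the group mean correlated at 0.0277, -0.0977 and -0.123 for numbers 1 to 3, and not every library correlated best with its own number. With 3 libraries per group such correlations cannot decide whether the numbers share a culture or day. The block gave 1478 genes higher and 1475 lower, against 1839 and 1896 without it. Shares were also taken with the longest coding transcript as length, an alternative chosen after seeing the data. BIK then made up 46.3% of the summed level of the BH3-only members in knockout-labelled and 57.98% in WT libraries. MCL1 made up 61.2% of that of the prosurvival members in knockout-labelled and 64.1% in WT libraries. Counts limit BMF and BCL2L15 most, at 15 to 50 and 62 to 101 counts per library.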
